A study of Equus caballus with 10 samples.

Results

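Transcripts of 9 genes of the photoperiod, thyroid hormone, oestrogen, growth factor and prolactin pathways were followed in ejaculated spermatozoa of warmblood stallions (Equus caballus). The genes were DIO2, DIO3, THRA, THRB, ESR1, ESR2, IGF1R, PRLR and MTNR1A, chosen by name, and a probe set was taken where the platform annotation gave it exactly 1 gene symbol. All 9 were measured, each by 1 probe set, among 16661 genes with such a probe set and 30559 probe sets in all. RNA of 10 stallions was hybridised to 10 Affymetrix expression arrays, 1 per animal, and the animals were classed by season and by fertility. Stallions 1 and 2 were labelled autumn with high fertility (n = 2) and stallions 3, 4 and 9 spring with high fertility (n = 3). Stallions 5 and 6 were labelled autumn with low fertility (n = 2) and stallions 7, 8 and 10 spring with low fertility (n = 3). All were males of breeding age kept at an insemination centre, with 4 ejaculates sampled from each, and the labels name no treatment. The labels place all sampling in the breeding season, the autumn animals included, and the title of stallion 9 opens like the autumn titles although its season field reads spring. The sources used here do not give how fertility was classed, or whether the ejaculates of a stallion were combined.

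Horses are long-day breeders, in which melatonin secreted at night carries day length to the pituitary and brain. In seasonal mammals the melatonin receptor MTNR1A stands at the start of this route, and day length sets local thyroid hormone through the deiodinases. DIO2 turns thyroxine into active triiodothyronine and DIO3 inactivates both hormones. Active hormone acts through the nuclear receptors THRA and THRB. ESR1 and ESR2 are the nuclear oestrogen receptors, and stallion semen and testis are known to be rich in oestrogens. IGF1R is the receptor tyrosine kinase for insulin-like growth factors, and PRLR binds prolactin, a hormone whose blood level follows day length in horses. Mature spermatozoa transcribe little or nothing, so their RNA is mostly a remnant of spermatid development.

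The values are the deposited log2 signals, which have a floor of 4 and no detection call. In the text a value is at the floor when it is exactly 4 and near it when it is at most 4.5. Between 842 and 2920 probe sets sat on the floor of an array, and array medians ran from 5.07 to 5.49. The arrays of stallions 2, 9 and 10 stood apart, with the 3 lowest medians (5.07 to 5.10) and the most probe sets on the floor (2764 to 2920). Results are therefore given with and without them. The 10 sperm and late spermatid markers averaged 9.45 to 11.8 per array. The marker lists of other cells lay close to the array medians. Leukocyte markers (9 of 10 measured) averaged 5.25 to 5.75, epithelial markers (5 of 8) 5.18 to 5.77, Sertoli and Leydig cell markers (7 of 8) 5.14 to 5.88 and erythroid markers (4 of 6) 5.25 to 5.83. In such bulk RNA, fewer cells of a type and less RNA per cell cannot be told apart.

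Signals of the 9 genes lay between 4.00 and 6.38, on both sides of the array medians and below the averages of the sperm markers. PRLR and MTNR1A lay below the array median on 10 of 10 arrays, and each was near the floor on 3. THRB was below the median on 9 arrays, IGF1R on 6, THRA on 5 and DIO3 on 4. DIO2 and ESR1 were below it on 1 array each, and ESR2 on none. The only value at the floor itself was that of DIO3 in stallion 10. Signals of different probe sets do not rank the abundance of their genes, so these positions bear only on how far each probe set stood above the lowest signals.

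**Figure D1:**
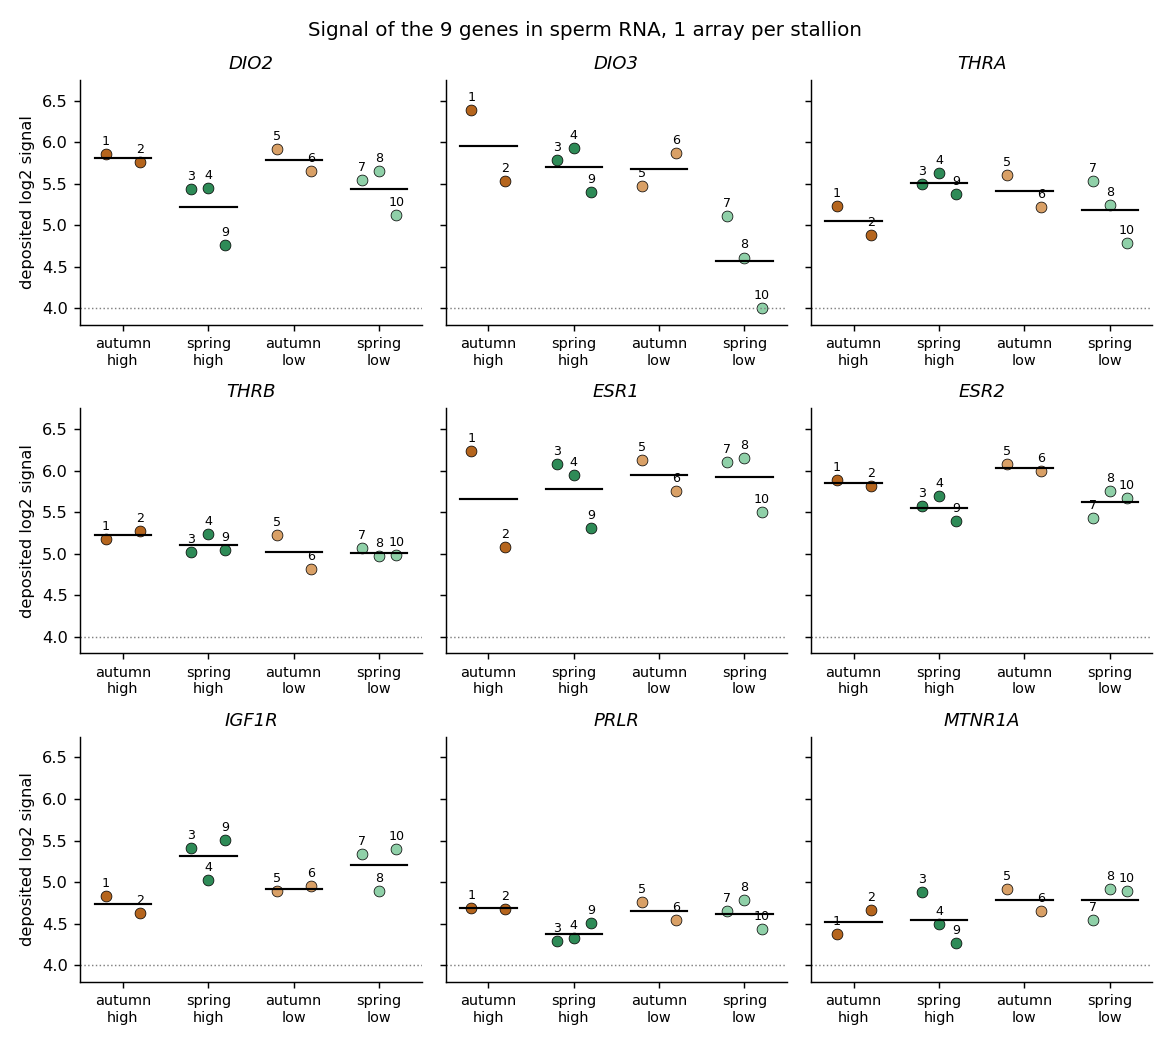
Deposited log2 signal (vertical axis) of each of the 9 genes in the 4 groups of season and fertility class (horizontal axis). Points are stallions, with their numbers, bars are group means and the dotted line is the floor of 4. DIO3 reaches from 6.38 in stallion 1 to the floor in stallion 10, whereas THRB stays between 4.81 and 5.27.

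Spring was compared with autumn within each fertility class by limma, with 1 mean per group fitted to all 10 arrays and p-values adjusted over all probe sets. None of the 9 genes passed an adjusted p of 0.05 in either class (limma, every adjusted p = 1), where 0% of all probe sets passed in high and 0.00654% (2 probe sets) in low fertility. Without stallion 6, 29 probe sets passed in low fertility, again none of the 9. At an unadjusted p under 0.05 there was 1 gene in high fertility, IGF1R, beside 4.15% of all probe sets. In low fertility there was also 1, DIO3, beside 3.97%. The gene in high fertility depended on the scaling. After centring each array on its median, DIO2 was at 0.0299, THRA at 0.0594 and IGF1R at 0.0787 there (limma, unadjusted p). With quantile normalization they were at 0.0237, 0.0493 and 0.0769. DIO3 in low fertility was at 0.0107 and 0.0122 under the 2 scalings. With groups of 2 and 3 stallions the number of arrays limits the precision. Each array is a different animal, so the spread joins animals and handling.

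By mean, 4 of 9 genes were higher in spring in high-fertility stallions, against 48.7% of all probe sets. In low fertility it was 1 of 9, against 40.4%. Without stallion 3 it was 2 in high fertility, and in low fertility it was 5 without stallion 5, 4 without stallion 10 and 2 without stallion 7 or 8. The median difference of the 9 genes was -0.13 in high and -0.03 in low fertility, and that of all probe sets -0.01 and -0.07. DIO2, DIO3, ESR2, PRLR and THRB had the lower mean in spring in both classes, and IGF1R the higher mean in both. These are 5 and 1 of 9 genes, where 30.5% and 19.6% of all probe sets had such signs. The deposited arrays are not on a common median. Centring each array on its median shifted the median difference of all probe sets by 0.11 in low and 0.027 in high fertility. After centring, 5 of 9 genes were higher in spring in low fertility, since the small differences of THRB, ESR1, PRLR and MTNR1A changed sign. The signs of DIO2, DIO3, THRA, ESR2 and IGF1R in low fertility were the same after centring.

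**Figure D2:**
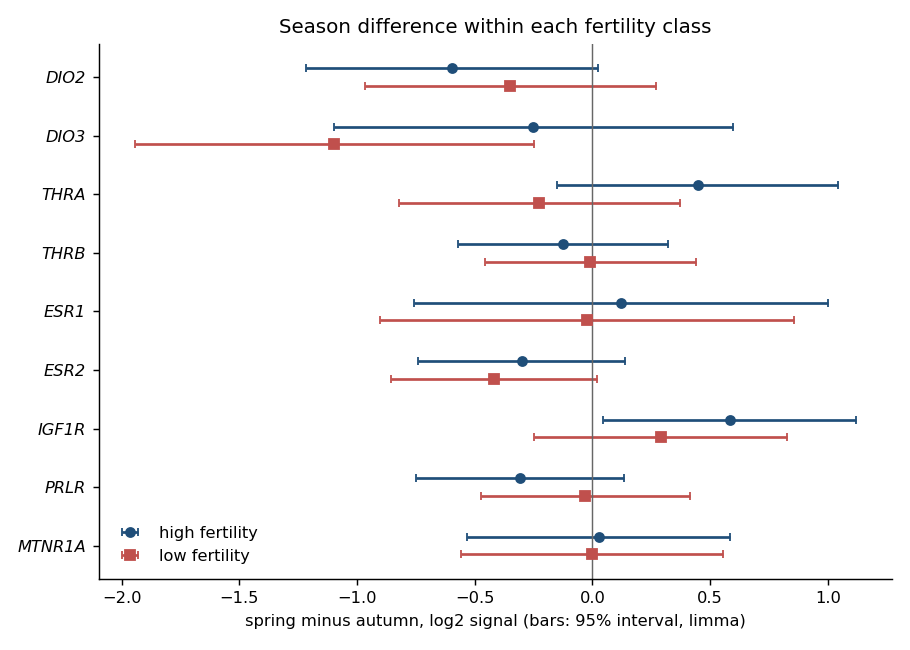
Spring minus autumn difference in log2 signal (horizontal axis) of each gene (vertical axis) in high-fertility (circles) and low-fertility stallions (squares). Bars are 95% intervals from limma on the deposited values. The interval of DIO3 in low fertility (-1.94 to -0.25) and that of IGF1R in high fertility (0.045 to 1.12) lie to one side of 0, and the other 16 span it.

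DIO3, the inactivating deiodinase (probe set 15046200), had the widest range of the 9 genes, 2.38 log2 units. In low fertility it read 5.47 and 5.87 in autumn and 5.11, 4.61 and 4.00 in spring (stallions 7, 8 and 10). Every spring value was thus below every autumn value, and the lowest spring value was the floor itself. The difference was -1.10 (SE 0.37), a 2.14-fold lower signal, with an unadjusted p of 0.0168 and an adjusted p of 1 in limma. Without the arrays of stallions 2, 9 and 10 it was -0.81, and after centring the arrays -0.99. Over all 18 alternatives it lay between -1.37 and -0.81, with the same sign in each. Alternatives that leave the low-fertility values as they are, such as a trend or leaving out a high-fertility stallion, cannot move this difference. Their sign was therefore fixed beforehand. In high fertility the values were 6.38 and 5.53 in autumn and 5.78, 5.93 and 5.40 in spring. Here the seasons overlapped, and the difference of -0.25 (SE 0.37) was smaller than its error. It turned to 0.17 without stallion 1, to 0.085 with stallion 9 counted as autumn, and to -0.53 without stallions 2, 9 and 10.

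DIO2, the activating deiodinase (probe set 15047590), read 5.86 and 5.76 in autumn and 5.43, 5.45 and 4.76 in spring in high-fertility stallions. All 3 spring values were below both autumn values, and the lowest was that of stallion 9. The difference was -0.60 (SE 0.27), a 1.51-fold lower signal, with an unadjusted p of 0.0571 and an adjusted p of 1 in limma. It was -0.37 without stallion 9, -0.42 without stallions 2, 9 and 10, and -0.02 with stallion 9 counted as autumn. Centring the arrays gave -0.57, with an unadjusted p of 0.0299 in limma. In low fertility DIO2 read 5.92 and 5.65 in autumn and 5.54, 5.65 and 5.12 in spring. One spring value equalled an autumn value, and the difference was -0.35 (SE 0.27, and -0.24 after centring). Both deiodinase probe sets therefore had their lowest value in a spring stallion of the 3 low-median arrays, and the part of those arrays in the differences was not tested beyond leaving them out.

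The thyroid hormone receptor gene THRA (probe set 14965850) differed in sign between the classes. In high fertility it read 5.23 and 4.88 in autumn and 5.50, 5.63 and 5.38 in spring, so all spring values were the higher ones. The difference was 0.45 (SE 0.26), and it was 0.27 without stallion 2 and 0.34 without stallions 2, 9 and 10. In low fertility THRA read 5.60 and 5.22 in autumn and 5.53, 5.24 and 4.78 in spring, which overlap. The difference was -0.23 (SE 0.26), -0.12 after centring and -0.025 without stallion 10. THRB, the second receptor gene (probe set 14997676), varied least of the 9, with an SD of 0.15 over the 10 stallions. It read 5.18 and 5.27 against 5.02, 5.24 and 5.04 in high fertility, and 5.22 and 4.81 against 5.07, 4.97 and 4.98 in low fertility, autumn first. Its differences were -0.13 (95% interval -0.57 to 0.32) and -0.0083 (-0.46 to 0.44). Seasonal differences inside these intervals remain compatible with the values of these arrays. The intervals are not limits of detection.

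The oestrogen receptor gene ESR2 (probe set 15046957) was above the array median in all 10 stallions. It was the only 1 of the 9 genes whose spring values lay below all autumn values in both classes, a pattern that 1.14% of all probe sets had. None of the 9 had the opposite pattern, found for 0.37%. In high fertility ESR2 read 5.89 and 5.81 in autumn and 5.57, 5.69 and 5.39 in spring. In low fertility it read 6.08 and 5.99 in autumn and 5.43, 5.75 and 5.67 in spring. The differences were -0.30 (SE 0.19) and -0.42 (SE 0.19), with an adjusted p of 1 for both in limma and unadjusted p of 0.157 and 0.0598. Centring gave -0.27 and -0.31, and in low fertility the seasons then touched. With stallion 9 counted as autumn the high-fertility difference was -0.067 and the seasons overlapped. Without stallions 2, 9 and 10 the differences were -0.26 and -0.45.

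ESR1, the other oestrogen receptor gene (probe set 15076078), was lowest on the 3 arrays with the lowest medians. It read 5.08, 5.31 and 5.50 on the arrays of stallions 2, 9 and 10 and 5.75 to 6.23 on the other 7. This separation was found for 11.3% of all probe sets, and ESR1 was the only 1 of the 9 genes (11.1%) to show it. After centring the 3 arrays still lay lower, at -0.02 to 0.42 from their medians against 0.51 to 0.81. The share of all probe sets with such a separation after centring was not counted. By season ESR1 read 6.23 and 5.08 in autumn and 6.08, 5.94 and 5.31 in spring in high fertility. The autumn pair spanned the spring values, and the difference was 0.12 (SE 0.39). Leaving out stallion 1 or stallion 2 moved it to 0.70 or -0.45. In low fertility the values were 6.13 and 5.75 in autumn and 6.10, 6.15 and 5.50 in spring, a difference of -0.023 (SE 0.39), and 0.19 without stallions 2, 9 and 10.

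IGF1R, the growth factor receptor gene (probe set 14945096), had the higher mean in spring in both classes. In high fertility it read 4.83 and 4.63 in autumn and 5.41, 5.02 and 5.51 in spring, with no overlap. The difference was 0.58 (SE 0.24), a 1.5-fold higher signal, with an unadjusted p of 0.0368 and an adjusted p of 1 in limma. It was 0.39 without stallions 2, 9 and 10 and 0.225 with stallion 9 counted as autumn, where the seasons overlapped. Centring the arrays gave 0.61, with an unadjusted p of 0.0787 in limma. In low fertility IGF1R read 4.89 and 4.95 in autumn and 5.34, 4.89 and 5.40 in spring. Stallion 8 equalled the lower autumn value, and the difference was 0.29 (SE 0.24, and 0.40 after centring). On the 3 low-median arrays IGF1R was not uniformly low: stallion 2 had its lowest value of all 10, stallion 9 its highest, and stallion 10 the highest in low fertility.

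PRLR, the prolactin receptor gene (probe set 15033793), lay between 4.29 and 4.78 on all arrays. In high fertility it read 4.69 and 4.68 in autumn and 4.29, 4.33 and 4.51 in spring. The spring values were all lower, 2 of them near the floor, and the difference was -0.31 (SE 0.20). Centring the arrays gave -0.28, and the seasons then overlapped. In low fertility it read 4.76 and 4.54 in autumn and 4.65, 4.78 and 4.43 in spring, a difference of -0.03 (SE 0.20) that became 0.078 after centring. MTNR1A, the melatonin receptor gene (probe set 15056345), read 4.38 and 4.66 in autumn and 4.88, 4.49 and 4.27 in spring in high fertility. It read 4.92 and 4.65 against 4.54, 4.92 and 4.89 in low fertility. Seasons overlapped in both classes, and the differences were 0.027 (95% interval -0.53 to 0.58) and -0.0017 (-0.56 to 0.56). These intervals cover only the spread of the deposited signal, and how signals this close to the floor follow transcript level was not tested.

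Counted over the 9 genes, every spring value was above every autumn value for 2 in high fertility (IGF1R and THRA), beside 6.24% of all probe sets. Every spring value was below for 3 (DIO2, ESR2 and PRLR), beside 9.88%. In low fertility no gene had all spring values above, beside 4.64%, and 2 had all below (DIO3 and ESR2), beside 11.7%. With stallion 9 counted as autumn, the high-fertility counts were 1 above (THRA) and 1 below (PRLR), beside 13.6% and 5.47% of all probe sets. Without stallions 2, 9 and 10, which leaves 1 autumn and 2 spring animals in high fertility, they were 3 above (IGF1R, MTNR1A and THRA) and 5 below (DIO2, DIO3, ESR1, ESR2 and PRLR). With so few animals 24.9% and 41.8% of all probe sets were above and below. The low-fertility counts were the same under both, for the same genes. Over all probe sets without stallions 2, 9 and 10, 12.7% were above and 15.5% below in that class. After centring the arrays, PRLR was no longer among those below in high fertility, beside 9.47% of all probe sets. In low fertility PRLR then had all spring values above (9.04%), and DIO2 replaced ESR2 among those below (7.39%).

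**Figure D3:**
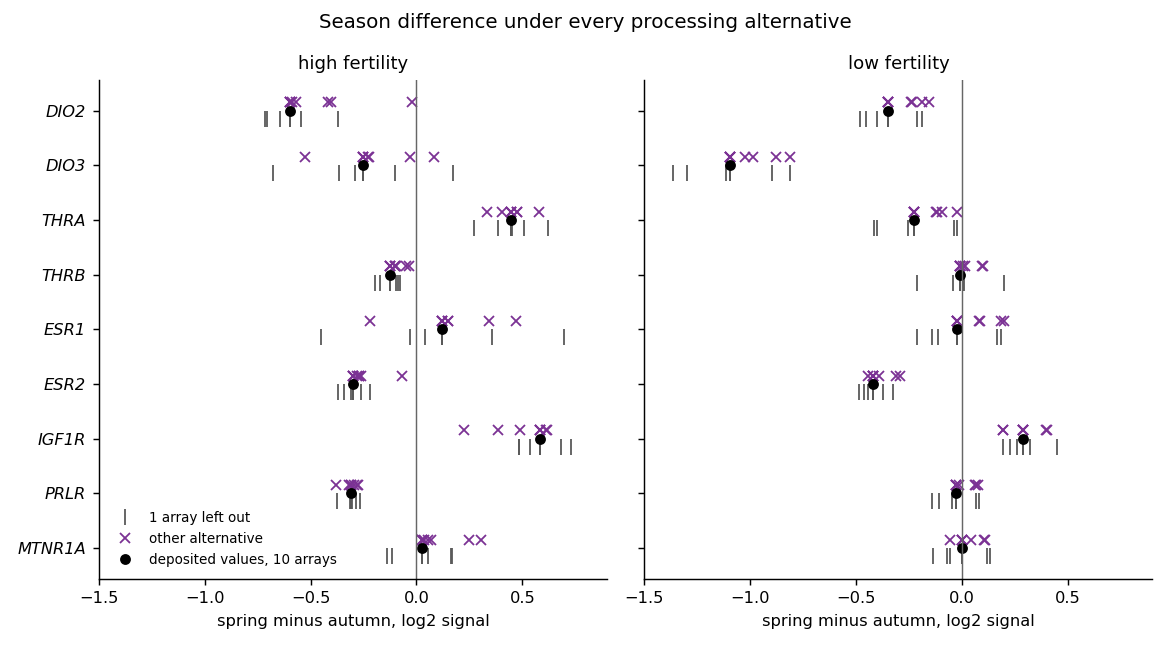
Spring minus autumn difference in log2 signal (horizontal axis) of each gene (vertical axis) in high-fertility (left) and low-fertility stallions (right). Filled circles are the values from all 10 deposited arrays, upright ticks those with 1 array left out, and crosses the other alternatives. DIO3 in low fertility keeps between -1.37 and -0.81, whereas ESR1 in high fertility reaches from -0.45 to 0.70.

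Whether the season difference itself differed between the fertility classes was tested as the interaction, low minus high fertility. None of the 9 genes passed (limma, every adjusted p = 1, against 0.00327% of all probe sets), and none had an unadjusted p under 0.05, against 3.79%. The most negative values were those of DIO3 at -0.85 (SE 0.53) and THRA at -0.68 (SE 0.37). PRLR was at 0.28 (SE 0.28) and DIO2 at 0.25 (SE 0.39), and the other 5 lay between -0.29 and 0.12. After centring the arrays, DIO3 at -0.76 and THRA at -0.59 were still the most negative. Leaving out stallions 2, 9 and 10, and so all but 1 autumn high-fertility animal, gave -0.285 for DIO3 and -0.36 for THRA and MTNR1A. There PRLR at 0.445 and ESR1 at 0.405 were the largest in size. Why the order changed was not tested. The opposite signs of THRA in the classes were thus not shown to be a difference between them.

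Averaged over the seasons, low was compared with high fertility in the same fit. None of the 9 genes passed (limma, every adjusted p = 1, against 0.00327% of all probe sets), and DIO3 alone had an unadjusted p under 0.05, against 2.59%. DIO3 was lower in low fertility by mean, at -0.71 (SE 0.26), a 1.63-fold lower signal. The unadjusted p was 0.0256 in limma and 0.0503 without its moderation, and the 18 alternatives lay between -0.92 and -0.495. Low and high fertility had means of 4.57 and 5.70 in spring, and of 5.67 and 5.955 in autumn. The spring low-fertility values, with stallion 10 at the floor, also enter the season difference of DIO3, so the 2 differences are not independent. All 3 spring low-fertility values of DIO3 were below all 3 spring high-fertility values, which 2.52% of all probe sets showed, while in autumn the classes overlapped. In autumn both low-fertility stallions were above both high-fertility stallions for ESR2 and IGF1R, as for 18.1% of all probe sets. The remaining 8 genes differed between the classes by -0.15 (THRB) to 0.25 (MTNR1A).

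The neighbouring genes of these pathways were taken as 4 lists that leave out the 9. Over all probe sets, 48.7% in high and 40.4% in low fertility were higher in spring, and 4.15% and 3.97% had an unadjusted p under 0.05. Of 22 measured genes of thyroid hormone activation, transport and response, 0 passed in limma in either class, and 0 in high and 1 in low fertility had an unadjusted p under 0.05. Their median difference was 0.11 in high fertility (14 higher, 8 lower in spring) and -0.23 in low fertility (4 higher, 18 lower). One of 22 genes is near the share of all probe sets. It was SLC16A10, a thyroid hormone and aromatic amino acid transporter gene. It read 6.26 and 6.58 in autumn and 4.81, 5.11 and 4.00 in spring in low fertility, a difference of -1.78 (SE 0.48, limma adjusted p = 0.864). The value of 4.00 was the floor itself, on the low-median array of stallion 10. In high fertility the difference of SLC16A10 was 0.30 (SE 0.48). KLF9, a transcription factor gene induced by thyroid hormone, was at -0.57 in low and -0.19 in high fertility. TRIP11, which encodes a Golgi protein also described as a thyroid receptor partner, was at 0.77 in high and -0.43 in low fertility. TTR, the thyroxine carrier of plasma, was at -0.51 and -0.39, and 5 of its 6 spring values were near the floor. Over the whole thyroid list, 6 of 22 genes had every spring value below every autumn value in low fertility, beside 11.7% of all probe sets. The lists named next had 3 of 22, 5 of 25 and 6 of 30 such genes. In the thyroid list 2 had every value above, beside 4.64%. Its interaction passed for 0 genes, and 3 had an unadjusted p under 0.05 (limma), all negative, beside 3.79%. How centring moves these list counts was not tested.

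Of 22 measured melatonin and photoperiod genes, 0 passed in either class, and 1 in high and 2 in low fertility had an unadjusted p under 0.05, all lower in spring, again beside 4.15% and 3.97% of all probe sets. The median was -0.12 in high (8 higher, 14 lower) and -0.047 in low fertility (9 higher, 13 lower). GNAI3, an inhibitory G protein subunit gene of the kind that melatonin receptors couple to, was 1 of these in both classes. It read 5.73 and 5.33 in autumn and 5.33, 4.40 and 4.56 in spring in high fertility, and 6.04 and 5.98 against 4.86, 4.91 and 5.20 in low fertility. The differences were -0.77 and -1.02 (SE 0.30 each, limma adjusted p = 1 and 0.97). The spring values of low-fertility stallions were all below the autumn ones, and in high fertility the groups touched at 5.33. EYA3, a transcriptional co-activator gene that responds to day length in the pituitary of sheep, was at -1.63 (SE 0.67) in low and -0.092 in high fertility. ASMT, the last enzyme of melatonin synthesis, was at -0.51 in high and -0.29 in low fertility.

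Of 25 measured steroid hormone receptor and synthesis genes, 0 passed in either class, and 0 in high and 1 in low fertility had an unadjusted p under 0.05, which is about the share of all probe sets. The medians were -0.015 and -0.08. By the rule of smallest p the genes named here include CYP19A1, the aromatase that makes oestrogens from androgens, which read 6.44 and 7.31 in autumn and 6.12, 5.71 and 5.45 in spring in low fertility. Its difference was -1.12 (SE 0.41, limma adjusted p = 1) in low and 0.0033 (SE 0.41) in high fertility. STS, the steroid sulfatase gene, was at -0.49 in low and -0.018 in high fertility. The hydroxysteroid dehydrogenase genes HSD17B1 and HSD17B12 were at -0.79 and -0.44 in high fertility and at -0.022 and -0.33 in low fertility.

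Of 30 measured genes of IGF, growth hormone and prolactin signalling, 0 passed in either class, and 1 in each had an unadjusted p under 0.05, no more than the share of all probe sets. The medians were 0.013 in high and -0.077 in low fertility. STAT5A, a transcription factor gene activated downstream of the prolactin receptor, read 6.98 and 5.86 in autumn and 5.86, 5.48 and 5.56 in spring in high fertility. The difference of -0.79 (SE 0.32, limma adjusted p = 1) stood beside a value of 6.98 in stallion 1 that was the highest of the 10. JAK2, the kinase bound to that receptor, was at -0.94 (SE 0.31, limma adjusted p = 1) in low and -0.15 in high fertility. STAT5B was at -0.72 in high and 0.037 in low fertility. SOCS1, an inhibitor of JAK kinases, was at 0.38 and -0.57 in the same order.

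**Figure D4:**
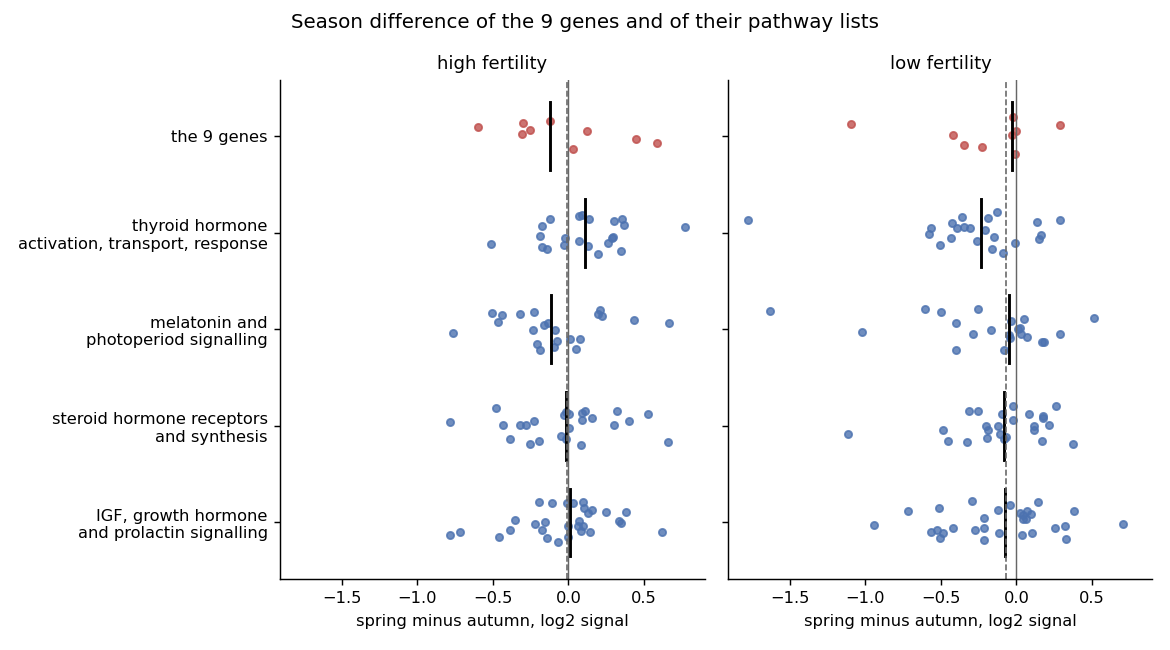
Spring minus autumn difference in log2 signal (horizontal axis) of the 9 genes and of the measured genes of each pathway list (vertical axis), in high-fertility (left) and low-fertility stallions (right). Points are genes, upright bars list medians and the dashed line the median of all probe sets. The thyroid list has its median at 0.11 on the left and at -0.23 on the right, and SLC16A10 lies farthest left at -1.78.

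The marker lists of the low-fertility stallions are given beside these differences, and the ranges of the seasons overlap for each of the 4 below. In autumn and spring low-fertility stallions respectively, leukocyte markers averaged 5.38 to 5.75 and 5.25 to 5.41, with 1 of the 9 measured on the floor of some array. Sertoli and Leydig cell markers averaged 5.55 to 5.77 and 5.46 to 5.66, epithelial markers 5.34 to 5.54 and 5.18 to 5.44, and sperm markers 10.9 to 11.2 and 9.45 to 11.8. In high fertility, leukocyte markers averaged 5.430 to 5.436 in autumn and 5.283 to 5.427 in spring, so all spring averages were lower by a narrow margin. The ranges of the other marker lists overlapped between the seasons in that class. The part of the marker lists in the differences of DIO2, DIO3, ESR2, PRLR or the list genes was not tested.

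For each of the 9 genes the probe sets with the most similar profile were sought as those with the smallest root mean square difference of log2 signals over the 10 arrays, after centring each profile on its own mean. For DIO2, whose own spread on this scale was 0.334, these were OAS3 (0.10), KCTD3 (0.11) and MSRB1 (0.112). DIO3, with the largest own spread of the 9 at 0.655, was nearest to MTHFD2L at 0.263. This was the largest such distance of the 9, on a scale that is not divided by the own spread. ESR1 (own spread 0.381) was nearest to OR2B11 at 0.0897, ESR2 (0.214) to CASP10 at 0.097 and IGF1R (0.287) to ASL at 0.104. THRA (0.276) was nearest to AFDN at 0.10 and THRB (0.138) to PALM2AKAP2 at 0.077. PRLR (0.165) and MTNR1A (0.226) were nearest to ITGB1BP2 at 0.0885 and NXPE3 at 0.122. None of the 3 nearest probe sets of any gene was another of the 9. With 10 arrays and 16789 named probe sets some close matches are found for any profile, so these are descriptions of likeness only.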

How the data were processed

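The authors deposited 1 log2 signal for each probe set and array, none below 4. Biotin-labelled cRNA was hybridised to Affymetrix arrays, per the labels' protocols, and GCOS 1.1.1 and Affymetrix Expression Console 1.1 are named without their roles, per the submitters' processing notes. How signals were summarised, background-corrected and scaled is not stated there. Groups came from the season and fertility fields. Values were tested as deposited, all 30559 probe sets together, with limma 3.58.1 in R 4.3.3 (lmFit and eBayes, 1 mean per group, two-sided, Benjamini-Hochberg adjustment, threshold 0.05, 6 residual and 2.96 prior degrees of freedom). The fit was tested on simulated data without a floor. Changes were planted there only in probe sets with a higher mean than any of the 9 genes, so recovery at their signals was not tested. Names came from the platform annotation: 16789 probe sets had 1 symbol, 343 several and 13427 none. No genome positions or sequences were used here. The 9 genes and the lists were chosen with earlier results of these data known. From each list the text names the 2 genes with the smallest unadjusted p per class. Alternatives were quantile normalization, array centring, a filter on means above 5, no moderation, a trend, stallion 9 in autumn, a term for titles without a number, and leaving out single arrays or stallions 2, 9 and 10. Tables and plots used Python 3.11.15.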

Additional observations from a re-analysis of the deposited data

How the results depend on the processing

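None of the 36 differences of the 9 genes (9 genes in 4 comparisons) passed under any alternative that was run, with the lowest adjusted p at 0.776 (limma), and 20 of them kept their sign in each. Alternatives that leave the values and groups of a comparison as they are, such as no moderation or a trend, cannot turn a sign. The alternative of averaging several probe sets of a gene had no case, and PRLR and MTNR1A have no value with the filter on means above 5.

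Of all probe sets, the number past the threshold for season in high fertility was 0 with the deposited values and 1 without moderation. For season in low fertility it was 2, against 1 with quantile normalization, array centring or the term for the title format and 0 without stallions 2, 9 and 10. For the interaction and for fertility it was 1, against 0 without stallions 2, 9 and 10, and for fertility 0 without moderation. Leaving out 1 array gave 0 to 1 for season in high fertility, 1 to 29 for season in low fertility, 0 to 15 for the interaction and 0 to 13 for fertility, the highest of the last 3 without stallion 6. The cause was not tested. Of the 9 genes, 5 had the higher mean in spring in low fertility with quantile normalization or centring, and 4 with the title term or without stallions 2, 9 and 10. Leaving out 1 array gave 1 to 5 in low and 2 to 4 in high fertility. Counts of genes whose seasons do not overlap were added after seeing the data. In high fertility those with all spring values below were 5 without stallions 2, 9 and 10 (41.8% of all probe sets) and 1 with stallion 9 in autumn (5.47%), which also gave 1 with all above (13.6%). After centring, 1 gene, PRLR, had all spring values above in low fertility (9.04% of all probe sets), and DIO2 replaced ESR2 among those below (7.39%). In high fertility PRLR was then no longer among those below (9.47%).

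Signs turned as follows, all without a call. With quantile normalization and with centring respectively, the low-fertility season difference was 0.0957 and 0.10 for THRB, 0.079 and 0.085 for ESR1, 0.064 and 0.0783 for PRLR, and 0.1033 and 0.1067 for MTNR1A. The MTNR1A interaction was 0.0667 and 0.0533, and the fertility difference -0.0433 and -0.0367 for THRA and -0.0182 and -0.0108 for IGF1R. With the title term the low-fertility difference was 0.0133 for THRB, 0.1975 for ESR1 and 0.0408 for MTNR1A. Without stallions 2, 9 and 10 it was 0.005 for THRB, 0.185 for ESR1 and 0.065 for PRLR. The same setting gave -0.22 for ESR1 in high fertility, 0.405 for its interaction and -0.0875 for its fertility difference, and -0.005 for the fertility difference of IGF1R. With stallion 9 in autumn, DIO3 in high fertility was 0.085, the interaction -0.3283 for DIO2 and 0.065 for IGF1R, and the fertility difference -0.0675 for THRA and -0.0375 for IGF1R.

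Leaving out 1 array at a time turned the sign of 14 differences, with these ranges. Season in high fertility ran from -0.68 to 0.17 for DIO3, -0.45 to 0.70 for ESR1 and -0.14 to 0.17 for MTNR1A. In low fertility it ran from -0.21 to 0.20 for THRB, -0.21 to 0.185 for ESR1, -0.14 to 0.08 for PRLR and -0.14 to 0.13 for MTNR1A. The interaction ran from -0.088 to 0.32 for THRB, -0.72 to 0.43 for ESR1 and -0.17 to 0.14 for MTNR1A, and the fertility difference from -0.014 to 0.18 for DIO2, -0.078 to 0.12 for THRA, -0.075 to 0.50 for ESR1 and -0.03 to 0.12 for IGF1R. Leaving out 1 autumn array leaves that group with 1 stallion, whose spread is taken from the other groups. The depth behind a signal cannot be read from these values, and only the floor marks where it is lost.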
